A study of Mus musculus with 8 samples.

Results

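The genes described here are 41 members of the ATF4 and unfolded protein response programmes, read in adherent cells from the subcutaneous fat of male C57BL/6 mice. They were chosen as a list of symbols from knowledge of these pathways, with earlier results of these data also known. Each was read by its probe with the highest mean signal. The list holds 19 amino acid response and ATF4 genes, 14 chaperones and folding enzymes of the endoplasmic reticulum (ER), 3 genes of ER-associated degradation and 5 sensors or feedback genes. They are 41 of 29462 genes or unnamed features tested. All 41 were matched to a probe, and all 41 were well above background on all 8 arrays, so the filter on dim probes removed none of them.

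The study set 2 diets against each other at 2 feeding times. Mice entered at 6 weeks of age and ate control chow or a high-fat diet with 60% fat for 12 or 24 weeks. The chow groups are C12 and C24 and the high-fat groups HF12 and HF24, named by their weeks of feeding, with 2 arrays in each. The labels name no engineered allele or drug in any group. All cells were digested from fat with collagenase, grown on uncoated plastic in serum-containing medium and passaged a few times before total RNA was taken. The labels call them mesenchymal stem cells on the basis of this adherent culture. They do not say whether the 2 replicates of a group came from separate mice or cultures, so the p-values below measure only how far these arrays scattered, and that scatter may be technical. The 24-week groups are also older mice, so feeding time and age cannot be told apart.

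ATF4 is a transcription factor whose mRNA is translated preferentially when the initiation factor eIF2 is phosphorylated, as happens when amino acids run short or when unfolded proteins gather in the ER. Its targets make and import amino acids, and include the factor CHOP (Ddit3) and the feedback genes Trib3 and Chac1. The chaperones of the ER are driven mainly by ATF6 and by spliced XBP1, the other arms of the unfolded protein response. Stromal cells of fat secrete collagen and other matrix proteins, which pass through the ER and draw on its folding enzymes.

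Values are log2 processed intensities with each array's 75th percentile set to 0. A value of 3 therefore lies 3 log2 units above that percentile of its own array. Levels of different genes come from different probes and are not set against each other. Changes are log2 differences with the standard error (SE) of the limma model fitted to all genes, and a gene was called when its Benjamini-Hochberg adjusted p, over all genes tested, was under 0.05.

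Arrays of the same group correlated at 0.994 to 0.998 over all genes tested, and arrays of different groups at 0.954 to 0.984. The 8 arrays shared 1 slide and 1 scan date. The 12-week groups lay in row 1 and the 24-week groups in row 2, with chow in columns 1 and 2 and high-fat diet in columns 3 and 4. Position on the slide and group therefore cannot be told apart. The share of probes well above background was 65 to 67.1% at 12 weeks and 57.4 to 62.3% at 24 weeks. Of 12 stromal cell markers, 10 were tested, all 10 were well above background in every group, and their summed scaled intensity (in units of the array's 75th percentile) ran from 493 to 601. Single stromal markers did move: 6 of 10 were called for diet at 12 weeks (2 higher, 4 lower) and 8 of 10 for time on high-fat diet (7 higher, 1 lower). Over all genes tested, 31.1% and 46.9% were called in these comparisons. In HF12 against C12, Nt5e was 9.90-fold lower and Alcam 3.67-fold higher. Markers of other cells also moved between groups. The 12 macrophage markers, all measured, summed to 73.2 to 74.4 in C12, 397 to 403 in HF12, 153 to 158 in C24 and 283 to 290 in HF24. The 10 adipocyte markers summed to 963 to 974 in C12, 231 to 245 in HF12, 139 to 142 in C24 and 103 to 105 in HF24, where Adipoq, Retn, Cfd and Pck1 were not well above background. The 7 skeletal muscle markers measured summed to 145 to 153 in C12, 110 to 114 in HF12, 57.1 to 57.6 in C24 and 22.0 to 22.7 in HF24. The keratinocyte markers Krt5 and Krt14 were 34.0-fold and 47.2-fold higher in C24 than in C12, and 11.4-fold and 9.49-fold lower in HF24 than in C24. Of the 4 keratinocyte markers tested, 3 were called higher and 1 lower (-0.25) in C24 than in C12, where 45.9% of all genes were called. Fewer cells of a type and less RNA per cell cannot be told apart in such bulk RNA, and the part of these markers in the results below was not tested.

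The promoters of the members carry different known response elements, and the stretches below are shown because they hold the elements through which ATF4 and the ER chaperone arms are known to act. RefSeq promoter windows for GRCm38.p6, from 250 bases before to 50 after the annotated start, were found for 37 of the 41 members. They were searched on both strands for the C/EBP-ATF response element (CARE, TGATGNAA), the ER stress element (ERSE, CCAAT, 9 bases, CCACG), ERSE-II (ATTGG, 1 base, CCACG) and the unfolded protein response element core (UPRE, TGACGTGG). ERSE and ERSE-II share CCACG, and its complement lies in the UPRE core, so matches to these can overlap. Matches are in capitals, on the strand of the gene, each sequence ending closest to the start.
Asns, chr6:7693210-7693272, minus strand: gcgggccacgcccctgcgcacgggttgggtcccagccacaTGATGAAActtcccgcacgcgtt
Chac1, chr2:119351009-119351096, plus strand: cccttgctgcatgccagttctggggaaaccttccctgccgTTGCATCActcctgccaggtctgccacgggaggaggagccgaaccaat
Slc7a11, chr3:50443614-50443719, minus strand: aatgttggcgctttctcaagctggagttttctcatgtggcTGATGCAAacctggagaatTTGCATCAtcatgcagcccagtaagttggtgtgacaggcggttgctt
Hspa5, chr2:34771985-34772083, plus strand: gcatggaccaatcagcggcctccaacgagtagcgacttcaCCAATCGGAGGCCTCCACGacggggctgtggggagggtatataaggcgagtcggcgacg
Creld2, chr15:88819480-88819578, plus strand: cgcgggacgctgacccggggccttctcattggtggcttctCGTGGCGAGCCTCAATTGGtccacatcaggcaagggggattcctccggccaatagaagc
Herpud1, chr8:94386277-94386427, plus strand: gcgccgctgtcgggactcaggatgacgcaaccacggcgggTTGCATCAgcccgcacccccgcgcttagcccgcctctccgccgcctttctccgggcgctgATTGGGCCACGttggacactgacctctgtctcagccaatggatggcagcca

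The capitals in Asns, Chac1 and Slc7a11 mark the CARE, which occurs in 2 copies in Slc7a11. In Hspa5 and Creld2 they mark the ERSE with its 9 inner bases. Herpud1 has a CARE first and an ERSE-II after it. A CARE lay in the windows of 6 of 18 amino acid genes (Asns, Chac1, Nupr1, Slc7a11, Trib3 and Vldlr) and of 0 of 12 chaperones, against 3.97% of 32851 promoter windows of the table. An ERSE lay in the windows of 7 of 12 chaperones (Calr, Canx, Creld2, Dnajc3, Hsp90b1, Hspa5 and Pdia6) and of 0 of 18 amino acid genes, against 0.119% of all windows. ERSE-II occurred in Herpud1 and Dnajb11, against 0.0365% of windows. The UPRE core occurred in no member's window, against 0.676% of windows. The 18 amino acid genes had 21 windows, so shares of genes are set here beside shares of windows. The elements were searched because they are known in these pathways, so their presence is no independent finding. These are matches of letters in short windows and describe no binding.

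**Figure D1:**
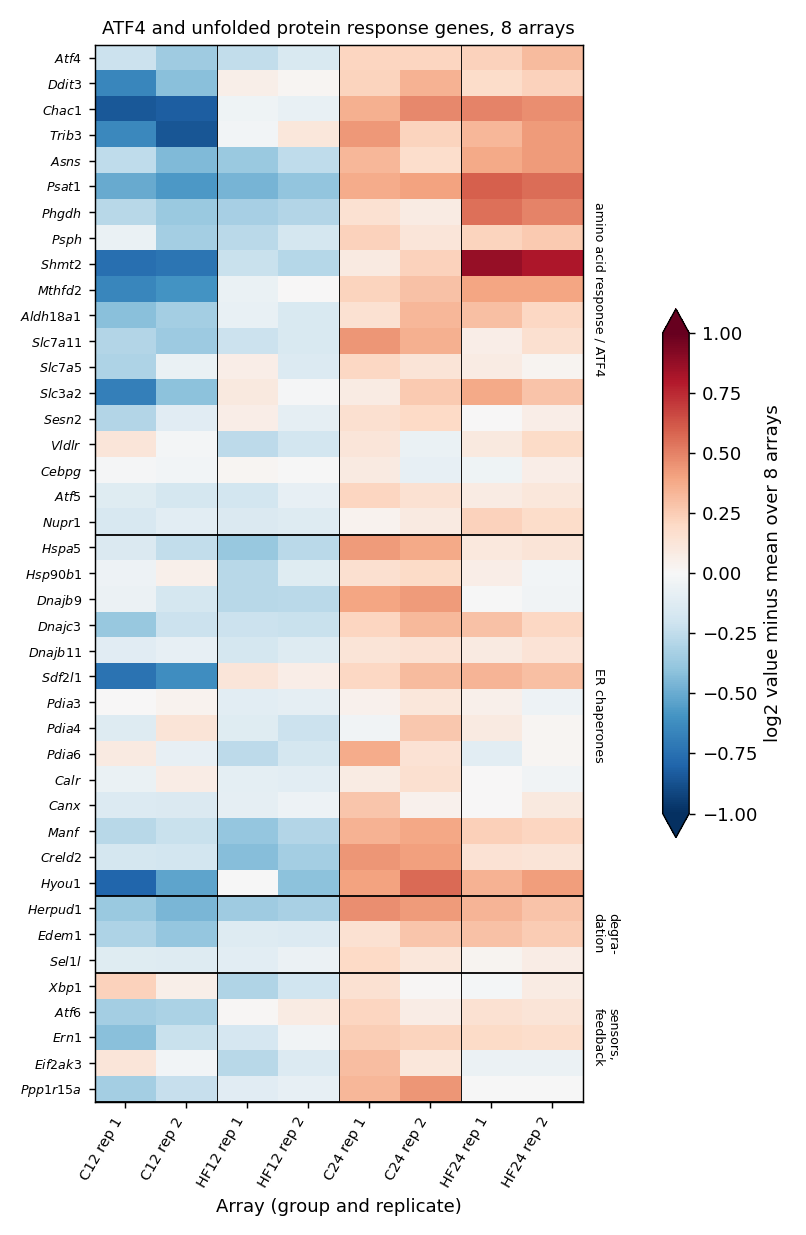
Heat map of the 41 genes (rows, grouped by role) on the 8 arrays (columns, by group and replicate). Colour is the log2 value minus the gene's mean over the 8 arrays, cut at -1 and 1. Most rows are blue at 12 weeks and red at 24 weeks, and Chac1, Trib3, Ddit3 and Sdf2l1 are blue mainly in C12.

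The amino acid genes and the chaperones both stood higher at 24 than at 12 weeks, and they separated by diet. Averaged over the 19 amino acid genes, each taken relative to its own mean over the 8 arrays, the level was -0.37 on both C12 arrays, -0.14 and -0.13 in HF12, 0.22 and 0.21 in C24, and 0.29 and 0.30 in HF24. The groups stood in the order C12, HF12, C24, HF24 with no overlap. For the 14 chaperones the same level was -0.21 and -0.16 in C12, -0.19 and -0.19 in HF12, 0.25 and 0.28 in C24, and 0.12 and 0.11 in HF24. The chaperone arrays of C12 and HF12 overlapped, and HF24 lay below C24.

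The difference of both levels, which no constant shift of an array's log2 values can move, was -0.19 ± 0.04 (SD, n = 2 arrays) in C12 and 0.06 ± 0.00 in HF12. It was -0.05 ± 0.03 in C24 and 0.18 ± 0.01 in HF24. Both high-fat groups thus stood above both chow groups. High-fat diet moved the difference by 0.25 at 12 weeks and by 0.23 at 24 weeks, and leaving out any 1 array gave 0.22 to 0.28 and 0.21 to 0.25. The longer feeding time moved it by 0.14 on chow and by 0.12 on high-fat diet. No test is given for these averages, since the members were chosen with earlier results of these data known.

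**Figure D2:**
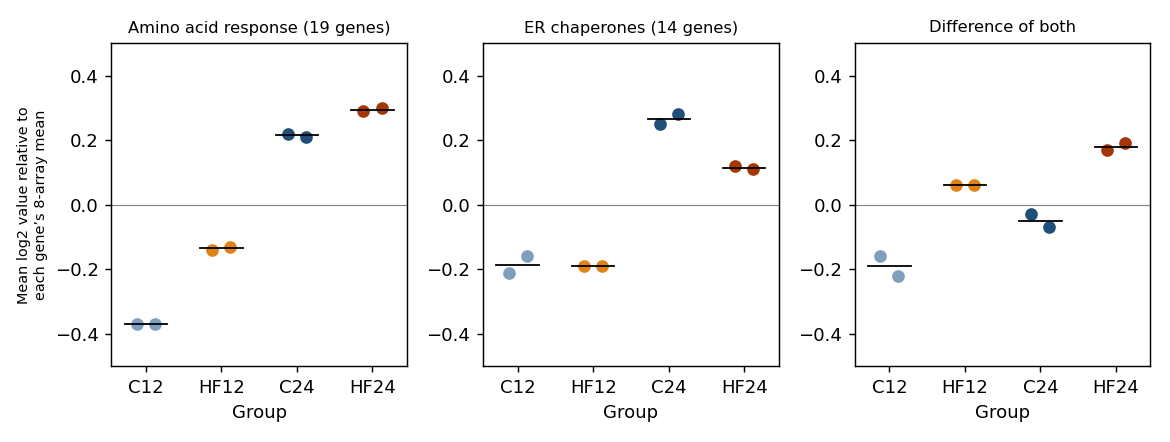
Mean log2 value of the 19 amino acid response genes (left), of the 14 ER chaperones (middle) and the difference of both (right), each gene relative to its mean over the 8 arrays. Points are single arrays, 2 per group, and lines are group means. In the right panel both high-fat groups lie above both chow groups.

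After 12 weeks, the question is how high-fat diet changed these genes against chow. Of the 41 members, 8 were called higher and 2 lower in HF12, and the median change was 0.06. Of all genes tested, 31.1% were called in this comparison, 13.5% higher and 17.7% lower, with a median change of -0.04. The members' share of calls was thus not above that of all genes. The called amino acid genes were the stress-feedback genes Chac1, Trib3 and Ddit3, the mitochondrial one-carbon enzymes Shmt2 and Mthfd2, and Slc3a2. In all, 6 of 19 amino acid genes rose and 0 fell, with a median of 0.15, while 1 of 14 chaperones rose and 1 fell, with a median of -0.11.

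Chac1, which encodes an enzyme that degrades glutathione, read 2.72 and 2.74 in C12 and 3.52 and 3.49 in HF12. The groups lay far apart, and the change was 0.77 ± 0.06 (SE), a 1.71-fold rise (limma adjusted p = 0.000371). Trib3, a pseudokinase that restrains ATF4, read 3.58 and 3.37 in C12 and 4.20 and 4.34 in HF12. It rose by 0.79 ± 0.11 (limma adjusted p = 0.00356). Ddit3, which encodes the factor CHOP, read 2.06 and 2.29 in C12 and 2.77 and 2.73 in HF12. The rise of 0.57 ± 0.10 was larger than the spread within either group (limma adjusted p = 0.00684).

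Shmt2, the mitochondrial serine hydroxymethyltransferase, read 2.21 and 2.23 in C12 and 2.74 and 2.68 in HF12. It rose by 0.49 ± 0.07 (limma adjusted p = 0.00336). Mthfd2, the next enzyme of that mitochondrial pathway, read 1.68 and 1.74 in C12 and 2.27 and 2.34 in HF12. All HF12 arrays were above all C12 arrays for both genes, and Mthfd2 rose by 0.59 ± 0.06 (limma adjusted p = 0.000826). Slc3a2, the shared heavy chain of several amino acid transporters, read 4.24 and 4.51 in C12 and 5.02 and 4.91 in HF12. It rose by 0.59 ± 0.11 (limma adjusted p = 0.0123). Its other probe, also well above background on all 8 arrays, changed by 0.19.

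Atf4 itself did not pass the test: it read 7.28 and 7.14 in C12 and 7.25 and 7.34 in HF12, and the arrays of the groups overlapped (change 0.08 ± 0.07, limma adjusted p = 0.442). Of the enzymes of serine and asparagine synthesis, none passed with the probe used. Asns, asparagine synthetase, read 5.34 and 5.15 in C12 and 5.22 and 5.34 in HF12, a change of 0.04 ± 0.09. Its other probe, also well above background on all 8 arrays, changed by 0.38, and with the mean of both probes Asns was called (0.21, limma adjusted p = 0.0291). Phgdh, which opens serine synthesis, changed by 0.02 ± 0.06, Psat1 by 0.11 ± 0.06 (its other probe by 0.33) and Psph, which closes it, by -0.02 ± 0.10. Aldh18a1, the first enzyme of proline synthesis, read 2.31 and 2.39 in C12 and 2.66 and 2.58 in HF12, and narrowly missed the threshold (limma adjusted p = 0.0518). The remaining amino acid members ran from -0.27 for Vldlr, a lipoprotein receptor, to 0.19 for Sesn2, an inhibitor of mTORC1 signalling. Slc7a11 was among them, at 0.15, and with the mean of its probes it was called at 0.36 (limma adjusted p = 0.0361).

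Among the chaperones, Sdf2l1, a luminal partner of ERdj3, read 1.29 and 1.41 in C12 and 2.15 and 2.10 in HF12. This rise of 0.78 ± 0.07 (limma adjusted p = 0.000589) was the only rise called among the chaperones, of which 10 had changes below 0. Creld2, a secreted ER stress protein, read 5.06 and 5.05 in C12 and 4.81 and 4.90 in HF12 and fell by 0.20 on the log2 scale (SE 0.06, limma adjusted p = 0.0452). Hspa5, the main Hsp70 of the ER (BiP), read 6.96 and 6.86 in C12 and 6.72 and 6.83 in HF12, a change of -0.13 ± 0.07 that did not pass (limma adjusted p = 0.186). Hyou1, its exchange factor, read -2.90 and -2.63 in C12 and -2.11 and -2.52 in HF12, and its change of 0.45 ± 0.16 did not pass either (limma adjusted p = 0.0838).

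None of the 3 degradation genes was called (median change 0.07), although with the mean of a gene's probes Herpud1 (0.21, limma adjusted p = 0.0285) and Edem1 (0.23, limma adjusted p = 0.0335) were, as was Dnajb9 among the chaperones (-0.29, limma adjusted p = 0.0166). Of the sensors and feedback genes, Xbp1, the factor activated by IRE1 splicing, read 6.04 and 5.87 in C12 and 5.51 and 5.61 in HF12. It fell by 0.40 on the log2 scale (SE 0.09, limma adjusted p = 0.0212). Its other probes, both well above background on all arrays, changed by -0.12 and -0.06, and the mean of its probes by -0.19. Whether its probe tells the spliced from the unspliced form was not examined. Atf6, the sensor that is cleaved into a factor driving ER chaperones, read 1.07 and 1.09 in C12 and 1.42 and 1.49 in HF12 and rose by 0.38 ± 0.07 (limma adjusted p = 0.00895). Ern1, which encodes IRE1, changed by 0.22 ± 0.08 and Eif2ak3, which encodes PERK, by -0.25 ± 0.09, and neither passed. Of these 10 calls, 6 held in all 18 alternatives. The call of Creld2 was lost in 14, that of Xbp1 without the filter on dim probes and without C12 replicate 1, HF12 replicate 1 or HF12 replicate 2 (adjusted p up to 0.111), that of Slc3a2 without C12 replicate 1 or HF12 replicate 1, and that of Atf6 without HF12 replicate 2. In this comparison the macrophage markers were at 397 to 403 in HF12 against 73.2 to 74.4 in C12, and the adipocyte markers at 231 to 245 against 963 to 974.

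**Figure D3:**
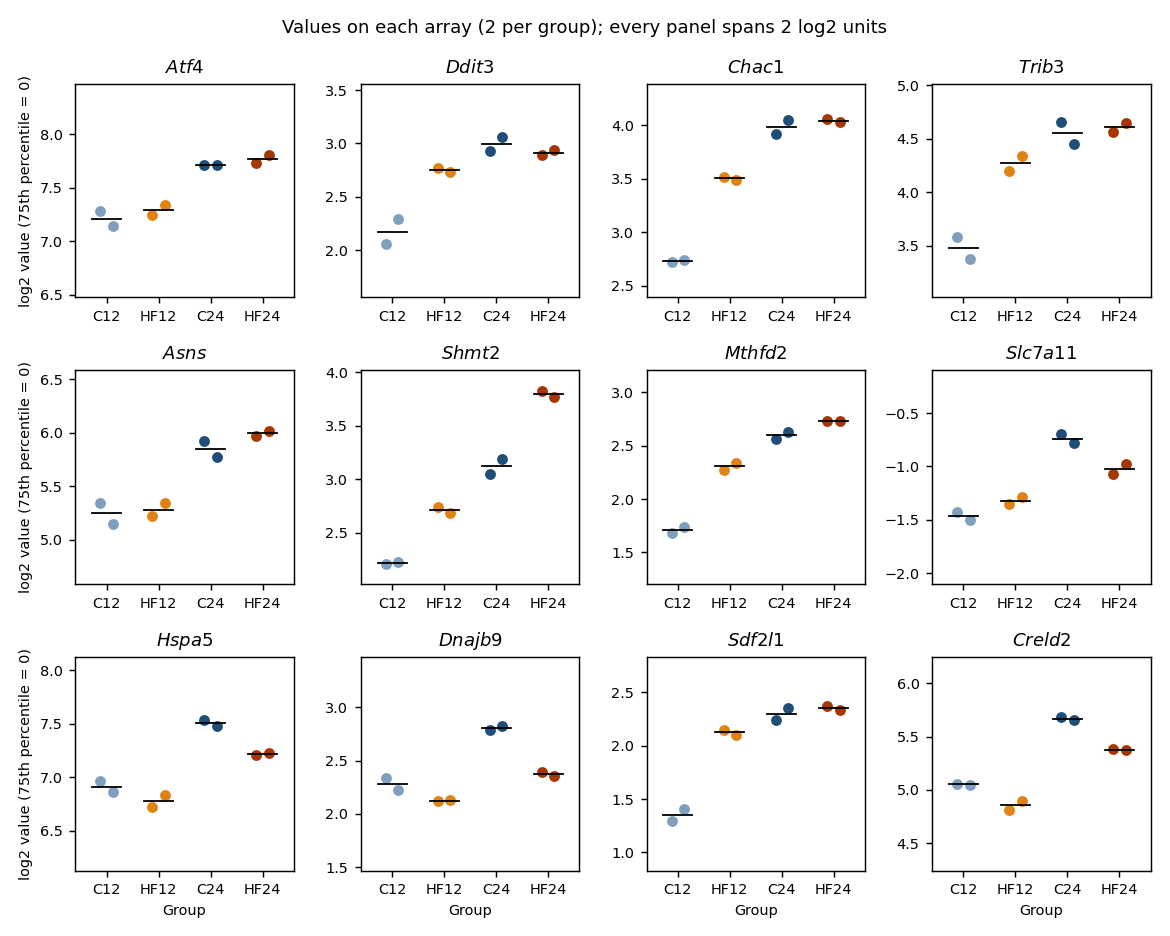
Log2 values of 12 genes on each array, with the array's 75th percentile at 0. Points are single arrays, lines are group means, and each panel spans 2 log2 units around its own centre. Chac1, Trib3, Ddit3, Shmt2, Mthfd2, Slc7a11 and Sdf2l1 are lowest on both C12 arrays, while Hspa5, Dnajb9 and Creld2 peak in C24.

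The same question was asked after 24 weeks. Of the 41 members, 3 were called higher and 5 lower in HF24 than in C24, with a median change of -0.05. Of all genes, 34.5% were called, 15.7% higher and 18.8% lower, and their median change was 0.03, so the members' share of calls was again not above that of all genes. Among amino acid genes 3 of 19 rose and 1 fell, with a median of 0.06. Among chaperones 0 of 14 rose and 3 fell, with a median of -0.13, and 1 of the 14 had a change above 0.

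Shmt2 read 3.05 and 3.19 in C24 and 3.83 and 3.77 in HF24. It rose by 0.68 ± 0.07, or 1.60-fold (limma adjusted p = 0.000995). Phgdh read 5.26 and 5.19 in C24 and 5.66 and 5.61 in HF24, a rise of 0.41 ± 0.06 (limma adjusted p = 0.00455). Psat1, the aminotransferase between Phgdh and Psph, read 5.00 and 5.03 in C24 and 5.23 and 5.19 in HF24 and rose by 0.20 ± 0.06 (limma adjusted p = 0.0472). Psph, the last step of serine synthesis, changed by 0.07 ± 0.10 and Mthfd2 by 0.14 ± 0.06, and neither passed (limma adjusted p = 0.646 and 0.123). Slc3a2 changed by 0.16 ± 0.11 and did not pass with the probe used, while its other probe changed by 0.54. With the mean of its probes Slc3a2 was called (0.35, limma adjusted p = 0.0343).

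Slc7a11, the cystine importer, read -0.70 and -0.78 in C24 and -1.07 and -0.98 in HF24 and fell by 0.29 on the log2 scale (SE 0.07, limma adjusted p = 0.0203). Atf4 read 7.71 and 7.71 in C24 and 7.73 and 7.81 in HF24, a change of 0.06 ± 0.07. Chac1 read 3.92 and 4.05 in C24 and 4.06 and 4.03 in HF24, and its groups overlapped. Trib3, at 4.66 and 4.45 against 4.56 and 4.65, and Ddit3, at 2.93 and 3.06 against 2.89 and 2.94, overlapped as well. Asns, at 5.92 and 5.77 in C24 and 5.97 and 6.02 in HF24, changed by 0.15 ± 0.09 and did not pass, but was called with the mean of its probes (0.19, limma adjusted p = 0.0355).

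The chaperones that fell were Hspa5, Dnajb9 and Creld2. Hspa5 read 7.53 and 7.48 in C24 and 7.21 and 7.23 in HF24, and fell by 0.29 on the log2 scale (SE 0.07, limma adjusted p = 0.0213). Dnajb9 (ERdj4), a co-chaperone that represses IRE1, read 2.79 and 2.82 in C24 and 2.39 and 2.36 in HF24. It fell by 0.43 (SE 0.06, limma adjusted p = 0.00365), to near its C12 values of 2.34 and 2.22. Creld2 read 5.68 and 5.65 in C24 and 5.38 and 5.37 in HF24 and fell by 0.29 (SE 0.06, limma adjusted p = 0.0114). Pdia6, a protein disulfide isomerase, read 7.45 and 7.22 in C24 and 6.97 and 7.10 in HF24, a change of -0.30 ± 0.11 that did not pass (limma adjusted p = 0.0772). Sdf2l1 read 2.24 and 2.35 in C24 and 2.37 and 2.33 in HF24, and the groups overlapped.

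Ppp1r15a, which encodes the GADD34 phosphatase subunit that reverses eIF2 phosphorylation, read 3.79 and 3.90 in C24 and 3.46 on both HF24 arrays. It fell by 0.38 (SE 0.07, limma adjusted p = 0.00797). None of the 3 degradation genes was called, and Herpud1, an ER membrane protein of that pathway, went from 4.37 and 4.33 to 4.25 and 4.19. Of the 8 calls, 4 held in all 18 alternatives: Psat1 lost its call in 15, Hspa5 in 5 (with each C24 or HF24 array left out, and without the filter), Slc7a11 in 5 (C24 replicate 1 and HF24 replicate 1 among them) and Creld2 in 3 (without C24 replicate 1, HF24 replicate 1 or HF24 replicate 2). The count of calls depended on the scaling and on single arrays. It was 2 higher and 12 lower with quantile normalization, with 6 chaperones lower and an amino acid median of -0.01. The share called among all genes was then 32.7%, against 34.5%. Without C24 replicate 1 or HF24 replicate 1 fewer members were called, and so were fewer of all genes. The macrophage markers stood at 283 to 290 in HF24 and 153 to 158 in C24, and the adipocyte markers at 103 to 105 and 139 to 142.

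The diet comparisons at 12 and at 24 weeks share no array. Of 8 genes called higher at 12 weeks and 3 at 24 weeks, only Shmt2 was in both, which is 1 of 8 and 1 of 3, while over all genes tested 1525 were shared, 38.4% and 32.9% of the lists. Of 2 called lower at 12 weeks and 5 at 24 weeks, only Creld2 was in both, which is 1 of 2 and 1 of 5, against 34.8% and 32.7% over all genes. These overlaps depend on the probe used. With the mean of a gene's probes, Asns and Slc3a2 were also called higher at both times, and Dnajb9 lower at both. Members called higher were then 12 at 12 weeks and 4 at 24 weeks, and the overlap over all genes was not counted in that setting. Whether the diet effect itself differed between the times was tested with limma's interaction term, the change at 24 weeks minus that at 12 weeks. It was called in 9 members, 1 above 0 and 8 below 0, with 30.3% called among all genes tested.

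The interaction was -0.72 ± 0.09 for Chac1 (limma adjusted p = 0.00253), from changes of 0.77 at 12 weeks and 0.06 at 24 weeks. It was -0.75 ± 0.16 for Trib3 (limma adjusted p = 0.0168) and -0.66 ± 0.13 for Ddit3 (limma adjusted p = 0.0151). Mthfd2 changed by 0.59 at 12 weeks and by 0.14 at 24 weeks, and its interaction was -0.46 ± 0.08 (limma adjusted p = 0.00962). For these genes the diets differed at 12 weeks, when C12 was low, and lay close together at 24 weeks. Slc7a11 (interaction -0.43 ± 0.09) and Ppp1r15a (-0.57 ± 0.10) had changes of 0.15 and 0.19 at 12 weeks and of -0.29 and -0.38 at 24 weeks.

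Sdf2l1 was the only chaperone called, at -0.73 ± 0.10 (limma adjusted p = 0.00361). Among the sensors and feedback genes, Atf6 was called besides Ppp1r15a, at -0.38 ± 0.09. Phgdh was the only member whose diet effect was higher at 24 weeks by this test (0.40 ± 0.09, limma adjusted p = 0.0206). The interaction of Shmt2 was 0.19 ± 0.10 and did not pass (limma adjusted p = 0.195), nor did those of Hspa5 (-0.15 ± 0.10, called at -0.33 with the mean of its probes, as was Herpud1 at -0.33) and Dnajb9 (-0.27 ± 0.09, limma adjusted p = 0.0635). Calls of Chac1, Mthfd2, Sdf2l1 and Ppp1r15a held in every alternative run, whereas those of Atf6 and Phgdh were each lost in 9. Without HF24 replicate 1 the count was 5 in place of 9, without HF12 replicate 1 Ddit3 lost its call, without HF12 replicate 2 or HF24 replicate 1 Trib3 did, and Slc7a11 did so without C24 replicate 1, HF12 replicate 2 or HF24 replicate 1.

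**Figure D4:**
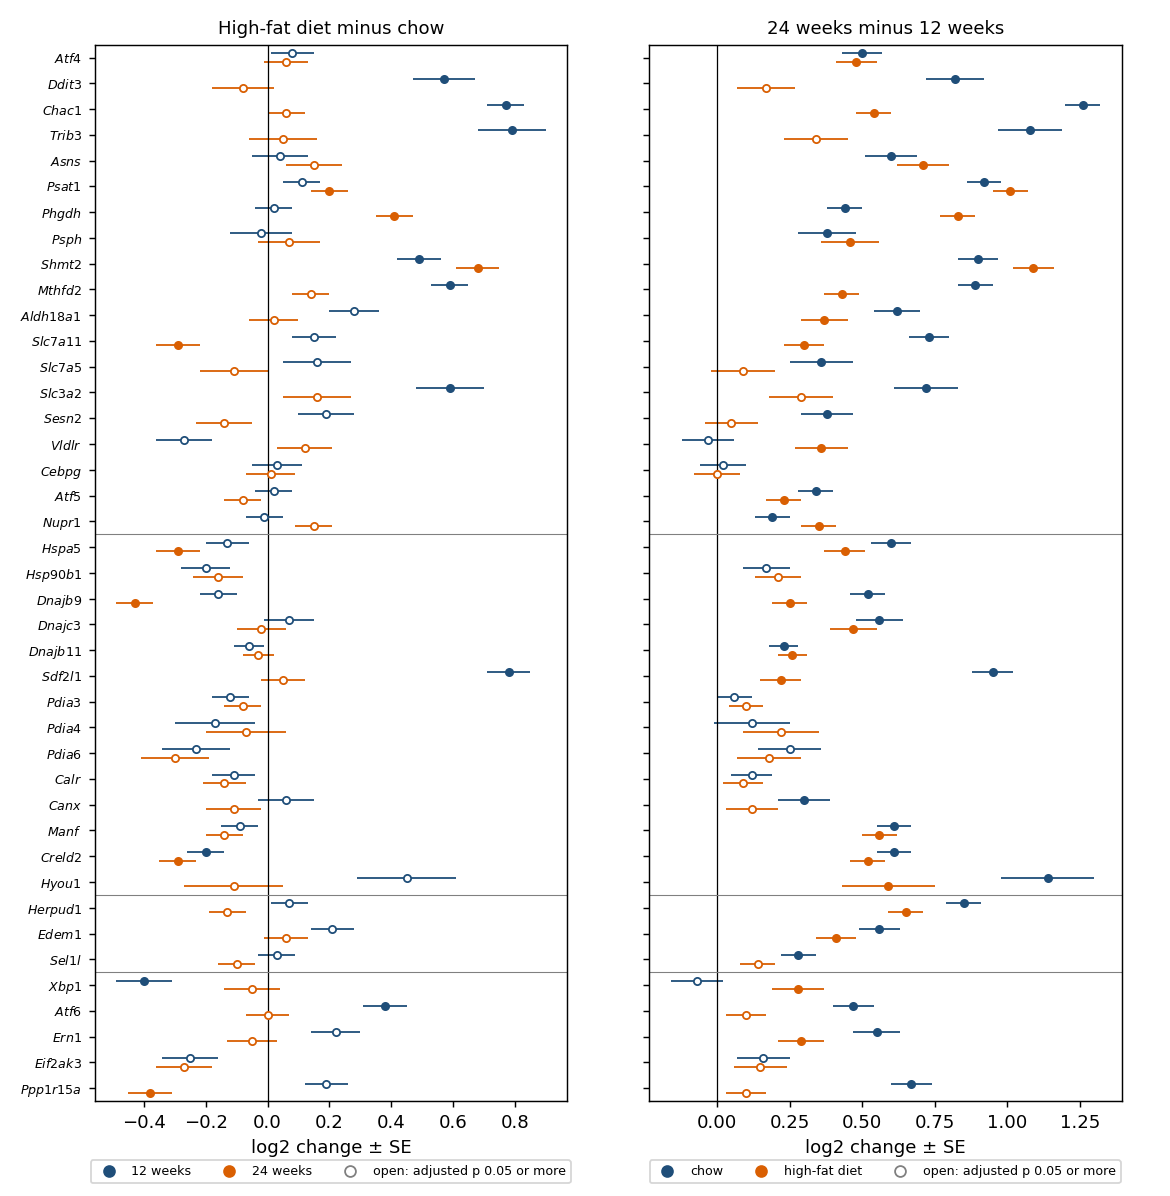
Log2 change ± SE of each of the 41 genes for high-fat diet minus chow (left, at 12 and 24 weeks) and for 24 minus 12 weeks (right, on chow and on high-fat diet). Filled points have a limma adjusted p under 0.05, and grey lines separate the roles. On the right nearly all points lie above 0, with 32 filled on chow and 25 on high-fat diet.

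The longer feeding time gave the broadest differences. On chow, 32 of 41 members were called higher at 24 than at 12 weeks and 0 lower, with a median change of 0.52. Of all genes, 45.9% were called, 23.4% higher and 22.4% lower, with a median change of 0.01. By role, 17 of 19 amino acid genes rose (median 0.60), 9 of 14 chaperones (median 0.41), 3 of 3 degradation genes (median 0.56) and 3 of 5 sensors or feedback genes (median 0.47). This comparison shares the C12 arrays with the diet comparison at 12 weeks and the C24 arrays with that at 24 weeks, so members low in C12 or high in C24 enter both.

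Chac1 went from 2.72 and 2.74 in C12 to 3.92 and 4.05 in C24, a rise of 1.26 ± 0.06 or 2.39-fold (limma adjusted p = 4.43e-05). Trib3 rose by 1.08 ± 0.11, from 3.58 and 3.37 to 4.66 and 4.45 (limma adjusted p = 0.000704). Ddit3 rose by 0.82 ± 0.10. Atf4 went from 7.28 and 7.14 to 7.71 and 7.71, a rise of 0.50 ± 0.07 (limma adjusted p = 0.00243), and its relative Atf5, also translated under eIF2 phosphorylation, rose by 0.34 ± 0.06.

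The enzymes of serine and one-carbon metabolism all rose on chow. Psat1 went from 4.13 and 4.06 to 5.00 and 5.03, a rise of 0.92 ± 0.06 (limma adjusted p = 0.00011). Shmt2 rose by 0.90 ± 0.07, Mthfd2 by 0.89 ± 0.06, Phgdh by 0.44 ± 0.06 and Psph by 0.38 ± 0.10. Asns went from 5.34 and 5.15 to 5.92 and 5.77, a rise of 0.60 ± 0.09 (limma adjusted p = 0.00352), and Aldh18a1 rose by 0.62 ± 0.08.

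Of the transporters, Slc7a11 rose by 0.73 ± 0.07, Slc3a2 by 0.72 ± 0.11 and Slc7a5, the large neutral amino acid transporter that pairs with Slc3a2, by 0.36 ± 0.11. The other probe of Slc3a2 changed by 0.17. Cebpg, which encodes a partner of ATF4, lay between 1.39 and 1.56 on all 8 arrays and was called in no comparison. Vldlr, at 2.78 and 2.64 in C12 and 2.78 and 2.59 in C24, was the other amino acid member that did not pass. Sesn2 rose by 0.38 ± 0.09 and Nupr1, a small stress-induced nuclear protein, by 0.19 ± 0.06.

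Among the chaperones, Hyou1 had the largest rise, from -2.90 and -2.63 in C12 to -1.70 and -1.54 in C24 (1.14 ± 0.16, limma adjusted p = 0.00219). Sdf2l1 rose by 0.95 ± 0.07 and Hspa5 by 0.60 ± 0.07, from 6.96 and 6.86 to 7.53 and 7.48 (limma adjusted p = 0.000985). Manf, a secreted ER stress protein, read at most 4.05 in C12 and 4.62 and 4.66 in C24 and rose by 0.61 ± 0.06, and Creld2 also rose by 0.61 ± 0.06. Dnajc3 (p58IPK), an inhibitor of PERK and co-chaperone, rose by 0.56 ± 0.08 and Dnajb9 by 0.52 ± 0.06. Hsp90b1 (GRP94), the disulfide isomerases Pdia3, Pdia4 and Pdia6, and Calr (calreticulin) had changes of 0.06 to 0.25 and did not pass, while Canx (calnexin) rose by 0.30 ± 0.09 and Dnajb11 (ERdj3) by 0.23 ± 0.05. Another probe of Dnajb11, also well above background on all 8 arrays, changed by 0.01. With the mean of its probes Dnajb11 was not called.

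Herpud1 went from 3.54 and 3.45 in C12 to 4.37 and 4.33 in C24, a rise of 0.85 ± 0.06 (limma adjusted p = 0.000161). Edem1, a lectin that directs glycoproteins to degradation, rose by 0.56 ± 0.07, and Sel1l, a scaffold of the ubiquitin ligase, by 0.28 ± 0.06. Of the sensors and feedback genes, Ppp1r15a rose by 0.67 ± 0.07, Ern1 by 0.55 ± 0.08 and Atf6 by 0.47 ± 0.07. Xbp1 (-0.07 ± 0.09) and Eif2ak3 (0.16 ± 0.09) did not pass. Of the 32 calls, 25 held in all 18 alternatives, and leaving out any 1 array gave 26 to 30. Calls of Nupr1 (lost in 13), Canx (11), Slc7a5 (8), Dnajb11 (5), Psph (4), Sel1l and Sesn2 (2 each) did not, each among others without C24 replicate 1 or C24 replicate 2. The adipocyte markers stood at 139 to 142 in C24 against 963 to 974 in C12, and the skeletal muscle markers at 57.1 to 57.6 against 145 to 153.

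On high-fat diet, 25 of 41 members were called higher at 24 than at 12 weeks and 0 lower, with a median change of 0.29. Of all genes, 46.9% were called, 22.8% higher and 24.1% lower, with a median change of -0.01. By role, 13 of 19 amino acid genes rose (median 0.36), 8 of 14 chaperones (median 0.24), 2 of 3 degradation genes and 2 of 5 sensors or feedback genes. The comparison uses no array of the chow groups, and 23 members were called higher on both diets, which is 71.9% of the 32 on chow and 92.0% of the 25 on high-fat diet. Over all genes tested the genes called higher on both diets were 53.3% of those on chow and 54.8% of those on high-fat diet.

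Shmt2 had the largest rise, from 2.74 and 2.68 in HF12 to 3.83 and 3.77 in HF24 (1.09 ± 0.07, limma adjusted p = 0.000135). Psat1 went from 4.17 and 4.24 to 5.23 and 5.19 and rose by 1.01 ± 0.06 (limma adjusted p = 0.000108). Phgdh went from 4.78 and 4.82 to 5.66 and 5.61 and rose by 0.83 ± 0.06 (limma adjusted p = 0.000269). Asns rose by 0.71 ± 0.09, Atf4 by 0.48 ± 0.07 and Chac1 by 0.54 ± 0.06.

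Ddit3 went from 2.77 and 2.73 in HF12 to 2.89 and 2.94 in HF24, a change of 0.17 ± 0.10 that did not pass (limma adjusted p = 0.205). Trib3 went from 4.20 and 4.34 to 4.56 and 4.65 (0.34 ± 0.11, limma adjusted p = 0.0518). Slc3a2 (0.29 ± 0.11), Slc7a5 (0.09 ± 0.11) and Sesn2 (0.05 ± 0.09) did not pass. The other probe of Slc3a2 changed by 0.52, and with the mean of its probes Slc3a2 was called. Vldlr, called on this diet and not on chow, went from 2.40 and 2.48 to 2.76 and 2.85 (0.36 ± 0.09, limma adjusted p = 0.0208). The interaction of Vldlr did not pass (limma adjusted p = 0.0676), so the time effect is not shown to differ between diets for that gene.

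Hspa5 went from 6.72 and 6.83 in HF12 to 7.21 and 7.23 in HF24 and rose by 0.44 ± 0.07 (limma adjusted p = 0.00341). Manf rose by 0.56 ± 0.06, Creld2 by 0.52 ± 0.06, Dnajc3 by 0.47 ± 0.08 and Hyou1 by 0.59 ± 0.16. Herpud1 rose by 0.65 ± 0.06, from 3.55 and 3.58 to 4.25 and 4.19. Xbp1 rose by 0.28 ± 0.09, from 5.51 and 5.61 to 5.79 and 5.89 (limma adjusted p = 0.0467), and Ppp1r15a, at 3.35 and 3.38 against 3.46 and 3.46, did not pass.

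Of these 25 calls, 14 held in all 18 alternatives. With the sign kept, those most often lost were Xbp1 (11), Sdf2l1 (10), Dnajb9 and Ern1 (6 each) and Vldlr (5). The other 6 (Aldh18a1, Atf5, Dnajb11, Hyou1, Psph and Slc7a11) were lost in 2 to 4, each of them without at least 1 of the HF12 or HF24 arrays. For Atf5 this leaves out quantile and normexp with quantile, where its sign turned. The count was 16 without HF12 replicate 1, 15 without HF24 replicate 2 and 19 with quantile normalization, under which 5 chaperones were called and Atf5, at 0.23 ± 0.06 otherwise, turned to -0.02. The adipocyte markers stood at 103 to 105 in HF24 against 231 to 245 in HF12, the macrophage markers at 283 to 290 against 397 to 403, and 8 proliferation markers at 91.6 to 93.4 against 79.0 to 80.1.

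Further genes of these pathways, from lists chosen with earlier results of these data known, give the setting of the members. Over all genes tested, 13.5% rose and 17.7% fell with high-fat diet at 12 weeks, and 15.7% and 18.8% at 24 weeks. With time, 23.4% rose and 22.4% fell on chow, and 22.8% and 24.1% on high-fat diet. The counts of every list below are to be read against these shares. Of 20 aminoacyl-tRNA synthetases, which charge tRNAs and are known ATF4 targets in part, 6 rose and 0 fell with high-fat diet at each time (medians 0.17 at 12 weeks and 0.13 at 24 weeks). With time, 17 rose on chow (median 0.36) and 15 on high-fat diet (median 0.33), and 0 fell. The called synthetases with the smallest p were Sars, Aars and Yars at 12 weeks (0.30, 0.24 and 0.21), where the largest change of the list was 0.33. With time on chow they were Tars, Eprs and Rars (0.61, 0.53 and 0.51), and the largest change was 0.65.

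Of 26 other ATF4 targets tested, 9 rose and 6 fell with high-fat diet at 12 weeks (median 0.13), and 6 rose and 2 fell at 24 weeks (median -0.03). Atf3, an early stress factor, rose by 2.55 ± 0.05 at 12 weeks, and Cbs, which makes cystathionine from homocysteine, fell by 3.85 (SE 0.08). At 24 weeks Fgf21, a stress-induced hormone, fell by 1.56. With time on chow 15 rose and 6 fell (median 0.37), and with time on high-fat diet 13 rose and 4 fell (median 0.21). These targets thus moved in both directions in each comparison, where 31.1%, 34.5%, 45.9% and 46.9% of all genes were called in the same order.

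Of 49 other folding and degradation genes of the ER, 5 rose and 6 fell with high-fat diet at 12 weeks (median -0.05), where 31.1% of all genes were called. At 24 weeks 1 rose and 3 fell (median -0.02), where 34.5% of all genes were called. Derl3, a channel protein of ER-associated degradation, fell at both times, by 1.53 and 0.73. With time, 22 rose and 6 fell on chow (median 0.18), and 22 rose and 3 fell on high-fat diet (median 0.19). Of 14 genes of the eIF2 machinery, 1 rose and 1 fell with high-fat diet at each time (medians -0.08 at 12 weeks and 0.08 at 24 weeks). With time, 7 rose and 1 fell on chow (median 0.20), and 6 rose and 1 fell on high-fat diet (median 0.21). Of 12 cytosolic heat shock genes, 1 rose with high-fat diet at 12 weeks and 4 at 24 weeks, 5 rose with time on chow and 9 on high-fat diet, and 0 fell in any of the 4 comparisons.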

How the data were processed

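Total RNA of 8 samples was hybridised with Cy3 to Agilent 8x60K mouse arrays and read with Agilent Feature Extraction 11.0.1.1, per the submitters' processing notes. Per the file headers, processed intensities as deposited had background and spatial trend removed within an array and were not scaled between arrays. A value table by the authors gives log2 values for 38475 probes. Each column was the log2 processed intensity shifted by a constant (slope 1, shift -9.99 to -9.79, column medians -1.46 to -1.35), with genes not centred. How the shift and the probes were chosen is not stated.

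Of 56605 non-control probes, 367 were dropped for outlier flags. Spots of a probe were averaged, log2 intensities had the array's 75th percentile subtracted, and probes well above background on both arrays of at least 1 group were kept (37476). Of the 56238 probes left after the flags and before the background filter, transcript accessions gave 1 symbol for 32835 (58.4%) through a RefSeq table. The kept probe of highest mean stood for its gene. The headers name build mm9; promoter sequences and their coordinates are from RefSeq, GRCm38.p6. Of the members, 21 had several probes.

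limma 3.58.1 in R 4.3.3 fitted 4 group means to all 8 arrays (4 residual and 1.9 prior degrees of freedom), with two-sided tests adjusted by Benjamini-Hochberg within each of 5 comparisons and a threshold of 0.05. Python 3.11.15, pandas 2.3.3 and matplotlib 3.10.9 did the rest, and the fit was tested on simulated data. Precision is limited by 2 arrays per group, and intensities carry no counts. Same-numbered replicates showed little common deviation (r between -0.08 and 0.17, the highest for C12 with C24). With 2 arrays per group this cannot exclude a pairing, and the main model used none.

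The members and lists were chosen with earlier results of these data known. All members could be named; from each of 5 further pathway lists, up to 3 called genes per comparison by smallest p, and 9 marker lists are given as sums. Alternatives were: other scalings (quantile; normexp with offset 50 and quantile, from the deposited median intensity; the median of detected probes), the authors' table, no filter or a filter on all arrays, the mean of a gene's probes, a variance trend, only the groups compared, the replicate block, and leaving out each array. Gene lists were given no test of their own.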

Additional observations from a re-analysis of the deposited data

Results flagged for a closer look

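In 9 members the effect of high-fat diet differed between 12 and 24 weeks by limma's interaction term, given here as the log2 change at 24 weeks minus that at 12 weeks. In 8 of them it was lower at 24 weeks: Trib3 (-0.75), Sdf2l1 (-0.73), Chac1 (-0.72), Ddit3 (-0.66), Ppp1r15a (-0.57), Mthfd2 (-0.46), Slc7a11 (-0.43) and Atf6 (-0.38). In Phgdh it was higher at 24 weeks (0.40). Among all genes tested 30.3% differed in this way, so a difference like that of the 9 members was not rare on these arrays. All of them but Phgdh, whose C12 and HF12 arrays overlapped, had their lowest values on the C12 arrays. C12 was the group with the highest adipocyte marker sum (963 to 974), and the part of those cells in the result was not tested. Slide row held the feeding time and slide column the diet, so position and group cannot be told apart.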

How the results depend on the processing

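All alternatives named were run. Of the members' calls, 6 of 10 (diet, 12 weeks), 4 of 8 (diet, 24 weeks), 25 of 32 (time, chow), 14 of 25 (time, high-fat diet) and 4 of 9 (interaction) held in every alternative. Only Atf5 turned sign, for time on high-fat diet: -0.02 under quantile and also -0.02 under normexp with quantile. The count of called chaperones for diet at 12 weeks was 2 in the report. It was 1 with the authors' table, no filter, only the groups compared, quantile scaling or the replicate block, and 4 with normexp or a variance trend. With that trend 17 members were called in all, and 14 in the interaction. Of all genes, the trend called 35.9% and 34.9%, against 31.1% and 30.3% in the report. For diet at 24 weeks, 5 members (2 amino acid genes) were called without the filter, 2 amino acid genes with only the groups compared, 14 members (6 chaperones) with quantile and 15 (7 chaperones) with normexp. Of all genes, 16.8%, 25.7%, 32.7% and 33.7% were called in the same order, against 34.5% in the report. For time on high-fat diet, 5 chaperones were called under either. The interaction called 2 chaperones with the filter on all arrays, the mean of probes, normexp, quantile or the trend. The amino acid minus chaperone level moved to 0.30 (diet, 12 weeks), 0.17 (time, chow) and -0.06 (interaction, -0.02 in the report) with the mean of probes, and to 0.15 (time, high-fat diet) with normexp. Leaving out each array in turn gave 7 to 10 members (5 to 7 amino acid genes, 1 to 2 chaperones) for diet at 12 weeks, 4 to 7 (2 to 3, 1 to 3) for diet at 24 weeks, 26 to 30 (13 to 16, 7 to 8) for time on chow, 15 to 26 (9 to 14, 4 to 8) for time on high-fat diet and 5 to 9 (3 to 7, 1 to 2) for the interaction; the level ranged over 0.22 to 0.28, 0.21 to 0.25, 0.11 to 0.17, 0.11 to 0.13 and -0.04 to 0.01. The cause of these shifts was not tested. Where an array was left out, the lone array of its group is assumed to vary like the others. With the replicate block 9, 7, 29, 23 and 8 members were called in the 5 comparisons, in the order above. Whether the replicate numbers pair the samples is not known. Without the filter the median of all genes moved from 0.01 to 0.14 for time on chow and from -0.01 to 0.13 on high-fat diet, and the share of higher calls among all genes from 51.1 to 66.6% and from 48.6 to 65.8%; the members' medians stayed at 0.52 and 0.29. Signal over background limits no member, since all were well above it on every array.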

Other observations

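Further marker lists, as summed scaled intensities over the arrays of a group, moved with the groups beside the members. The 8 endothelial markers summed to 13.4 to 13.5 in C12, 12.4 to 12.6 in HF12, 22.8 to 23.8 in C24 and 33.6 to 34.5 in HF24. The 5 Schwann cell markers summed to 12.4 to 13.9, 12.4 to 12.6, 17.9 to 18.5 and 4.08 to 4.11 in the same order. The 4 keratinocyte markers tested summed to 4.52 to 4.74, 4.55 to 4.58, 8.75 to 8.88 and 3.69 to 3.97. Single keratinocyte markers moved far more than this sum: Krt14 was 47.2-fold, Krt5 34.0-fold and Perp 6.03-fold higher in C24 than in C12, and they were 9.49-, 11.4- and 6.84-fold lower in HF24 than in C24. The 1 other marker tested was called lower in C24 than in C12 (-0.25 on the log2 scale) and was not called in HF24 against C24. The 4 lymphocyte markers tested summed to 2.12 to 2.41, 1.99 to 2.47, 2.28 to 2.29 and 2.65 to 2.79. The 8 proliferation markers summed to 56.0 to 56.4, 79.0 to 80.1, 52.6 to 56.3 and 91.6 to 93.4, higher on high-fat diet than on chow at both times with no overlap of arrays. Their part in the values of the members was not tested.

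Where called members had further probes well above background on all arrays, those probes changed in the same direction, though not always by the same size: 5 of 5 for diet at 12 weeks, 6 of 6 at 24 weeks, 19 of 19 for time on chow and 19 of 19 for time on high-fat diet. Those for time on chow include a change of only 0.01, in Dnajb11.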
